A study of Mus musculus with 11 samples.

Results

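The transcripts described here are those of 10 immediate early and stress-response genes, Fos, Fosb, Jun, Junb, Egr1, Egr2, Egr3, Atf3, Nr4a1 and Ier3, in macrophages sorted from tumors and spleens of mice. They were chosen by gene symbol, with earlier results of these data known. All 10 are in both deposited tables, which list 35118 genes for the comparison of genotypes and 35597 for that of sites. Of the 11 RNA sequencing libraries, 4 were of tumor-associated macrophages from LysMCre;Sin1fl/fl mice (KO_TAM), 4 of tumor-associated macrophages from Sin1fl/fl mice (WT_TAM) and 3 of splenic macrophages from Sin1fl/fl mice (WT_SP). All mice were C57BL/6, were 6 to 8 weeks old at injection under the skin with Lewis lung carcinoma (LLC) cells, a mouse lung cancer line, and gave their tissue on day 14, so the spleens too came from mice with a tumor and every group carried the floxed gene. Tumor cells were gated as CD45+ Ly6G- Ly6C- CD11b+ F4/80+ and spleen cells as CD45+ TCRβ- Ly6G- Ly6C- F4/80+ with low CD11b. LysM-Cre is driven by the Lyz2 locus, which is active in macrophages, neutrophils and some other myeloid cells, and removes floxed sequence in these lineages. Sin1, encoded by Mapkap1, is a subunit of the kinase complex mTORC2. The labels do not give the source animal of each library, and the p-values therefore measure the spread between libraries, which may be technical.

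Immediate early genes are transcribed within minutes of a signal, without new protein synthesis, through factors such as CREB and the SRF and ELK complex that MAP kinases activate. Fos and Fosb, which encode leucine zipper proteins of the FOS family, pair with the products of Jun and Junb to form AP-1, while Egr1, Egr2 and Egr3 encode zinc finger factors. Atf3, a leucine zipper gene of the stress response, Nr4a1, an orphan nuclear receptor gene induced by many stimuli in macrophages, and Ier3, a gene of a small regulator of survival that is induced by NF-kappaB, complete the group. Dissociation of tissue with warm enzymes and cell sorting are known to induce many of these genes. The labels give no dissociation procedure or time for either tissue, so an effect of handling and an effect of the tissue cannot be told apart in the comparison of sites.

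Promoter stretches are shown as background to the 10 genes. The cAMP response element (CRE), bound by CREB and ATF proteins, is a known entry point for induction of immediate early genes. The RefSeq table of GRCm38.p6 held a promoter window for 8 of the 10 genes, and 250 bases upstream of each annotated start were searched on both strands. The CRE core TGACG was present in 6 of 8 genes, against 17.8% of 32851 windows of this length. Those 6 are shown. It was absent from Jun and from Ier3, the gene with the largest difference between sites, and Egr1 and Egr3 had no window. A part of the motif in the differences between sites was not tested. Capitals mark TGACG or its reverse complement CGTCA, the EGR site GCGNGGGCG or its reverse complement, the TATA box TATAAA and, in Egr2, a CArG box, the SRF binding motif.
Fos chr12:85473755-85473868 (+ strand): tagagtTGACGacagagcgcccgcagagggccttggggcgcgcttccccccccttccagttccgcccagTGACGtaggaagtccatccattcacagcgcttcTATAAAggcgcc
Fosb chr7:19310081-19310111 (- strand): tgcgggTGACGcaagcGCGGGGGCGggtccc
Junb chr8:84978844-84978860 (- strand): tgacagTGACGcgagcc
Egr2 chr10:67537752-67537824 (+ strand): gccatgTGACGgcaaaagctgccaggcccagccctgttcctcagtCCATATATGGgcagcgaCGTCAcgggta
Atf3 chr1:191183334-191183346 (- strand): gcattaCGTCAgc
Nr4a1 chr15:101266771-101266816 (+ strand): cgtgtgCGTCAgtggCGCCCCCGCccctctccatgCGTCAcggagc

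The EGR site was found in 2 of the 8 genes, Fosb and Nr4a1, against 4.7% of all windows, and an NF-kappaB motif in 3 of 8, Fos, Fosb and Ier3, against 3.9%. A CArG box was found in 1 of 8, Egr2, against 1.47%, and the TATA box in 1 of 8, Fos, against 12.4%. The full palindromic CRE TGACGTCA, which contains the core, was in 0 of 8 genes and 1.55% of windows, and the AP-1 site TGANTCA in 0 of 8 and 6.75%. By the GENCODE annotation of GRCm38, the stretches of Fos, Fosb and Junb lie outside the gene, upstream of it, while those of Egr2, Atf3 and Nr4a1 lie within the span of the gene, downstream of an earlier start. These are letter matches in a window of fixed length around 1 annotated start, or around 5 starts for Egr2. None of them was measured as a binding site in these libraries.

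Between 7635523 and 13116622 reads were recovered per library from the deposited values, and levels are given as CPM, reads scaled by library total and the authors' factors, which differ between the tables. WT_TAM levels therefore have a value in each table and were compared only within a table. A level of 3 reads, the limit that a count of 0 allows, was 0.22 to 0.465 CPM in the genotype table and 0.211 to 0.492 CPM in the site table, counting error only. WT_TAM replicate 4 was the shallowest library and stood apart, with a mean correlation of 0.902 with the other WT_TAM libraries over 12875 genes, against 0.951 to 0.969 for the KO_TAM libraries and 0.954 to 0.956 for the other WT_TAM libraries. Mapkap1, the targeted gene, ranged from 43.3 to 54.1 CPM in KO_TAM. WT_TAM replicates 1 to 3, at 71.1, 66.4 and 59.7 CPM, lay above every KO_TAM library. The groups overlapped only through WT_TAM replicate 4, at 30.7 CPM (limma, adjusted p = 0.658). Which exons are floxed is not stated in the labels, so a whole-gene level does not check the deletion.

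The first comparison asks, by the series' design text, what Sin1 does in tumor-associated macrophages. KO_TAM and WT_TAM libraries overlapped for all 10 genes, from the abundant Fos and Junb to Egr3 with a few reads. The ratio of mean CPM, KO_TAM over WT_TAM, was 0.972 to 1.08 for Fos, Jun, Junb, Egr1, Nr4a1 and Ier3, 0.889 for Atf3, 1.26 for Egr2 and 1.48 for Fosb. In the test over 12875 genes, 0% were called at an adjusted p of 0.05 (limma, Benjamini-Hochberg), and 18.4% had an unadjusted p under 0.05. Among the 10 genes, 9 had enough reads to be tested, 0 of 9 were called and 0 of 9 had an unadjusted p under 0.05. The smallest adjusted p over all genes was 0.102, and limma voom also called 0 genes, with 2229 at an unadjusted p under 0.05. Groups did not overlap in 0 of 9, against 6.39% of all genes above and 8.74% below. The median log2 fold change of the 9 was 0.07, against 0.01 over all genes tested. On the log2 scale 8 of 9 means were higher in KO_TAM and 1, of Atf3, was lower, against 6499 of 12875 higher over all genes tested. The ratios of mean CPM of Jun and Nr4a1 were 0.972 and 0.976. Without WT_TAM replicate 4 the median log2 fold change of the 9 was -0.13.

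Of the AP-1 genes, Fos had 5161, 4157, 3938 and 3732 CPM in KO_TAM replicates 1 to 4, against 5217, 4878, 3822 and 2275 CPM in WT_TAM replicates 1 to 4. Every KO_TAM library lay inside the WT_TAM range, which WT_TAM replicate 4 extended downward. The log2 fold change was 0.13 ± 0.26 (SE; 95% interval -0.46 to 0.71; adjusted p = 0.808). Fosb had 130.3, 253, 136 and 142 CPM in KO_TAM, against 98.1, 90.8, 152 and 107 CPM in WT_TAM. It had the highest fold change of the group, 0.53 ± 0.26 (SE; 95% interval -0.04 to 1.10; adjusted p = 0.295), and its groups overlapped through WT_TAM replicate 3.

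For Jun, levels of 889.7, 838, 678 and 616 CPM in KO_TAM stood against 1079, 915, 614 and 499.7 CPM in WT_TAM. Its log2 fold change was 0.01 ± 0.26 (SE; 95% interval -0.57 to 0.59; adjusted p = 0.988), and the KO_TAM libraries all fell within the WT_TAM range. Junb had 2171, 3088, 1678 and 1763 CPM in KO_TAM, against 2586, 2153, 1968 and 1546 CPM in WT_TAM. KO_TAM replicate 2 was the highest of the 8 libraries and WT_TAM replicate 4 the lowest, with a log2 fold change of 0.06 ± 0.24 (SE; 95% interval -0.47 to 0.59; adjusted p = 0.908). Junb overlaps Prdx2 and Jun overlaps Junos on the opposite strand, and no source used here gives the strand setting of the counting, so reads of such pairs may be shared.

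Among the zinc finger genes, Egr1 had 582, 1021, 426 and 430.3 CPM in KO_TAM, against 820.0, 691, 474 and 288 CPM in WT_TAM. Egr2 had 149.9, 135, 81.3 and 60.0 CPM in KO_TAM, against 138, 94.0, 81.9 and 24.5 CPM in WT_TAM. Both overlapped broadly and had the widest errors of the 9 genes, with log2 fold changes of 0.12 ± 0.37 for Egr1 (SE; adjusted p = 0.871) and 0.48 ± 0.49 for Egr2 (SE; adjusted p = 0.602). Egr3 was close to the limit of detection and was not tested, with 3, 0, 0 and 5 reads in KO_TAM and 5, 6, 5 and 2 reads in WT_TAM.

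Atf3 had 567, 449, 527 and 295 CPM in KO_TAM, against 655, 515, 529 and 369 CPM in WT_TAM. Replicate 4 was lowest in both groups, and the log2 fold change was -0.18 ± 0.25 (SE; 95% interval -0.74 to 0.38; adjusted p = 0.701). Nr4a1 had 270.4, 369, 276 and 254 CPM in KO_TAM, against 339, 297, 418 and 142 CPM in WT_TAM, and all KO_TAM libraries lay inside the WT_TAM range (log2 fold change 0.05 ± 0.31, SE; adjusted p = 0.934). Ier3 had 709, 473, 479 and 479 CPM in KO_TAM, against 425, 639.7, 421 and 554 CPM in WT_TAM. KO_TAM replicate 1 was the highest library and the other 3 KO_TAM libraries lay inside the WT_TAM range (log2 fold change 0.07 ± 0.21, SE; adjusted p = 0.873).

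**Figure D1:**
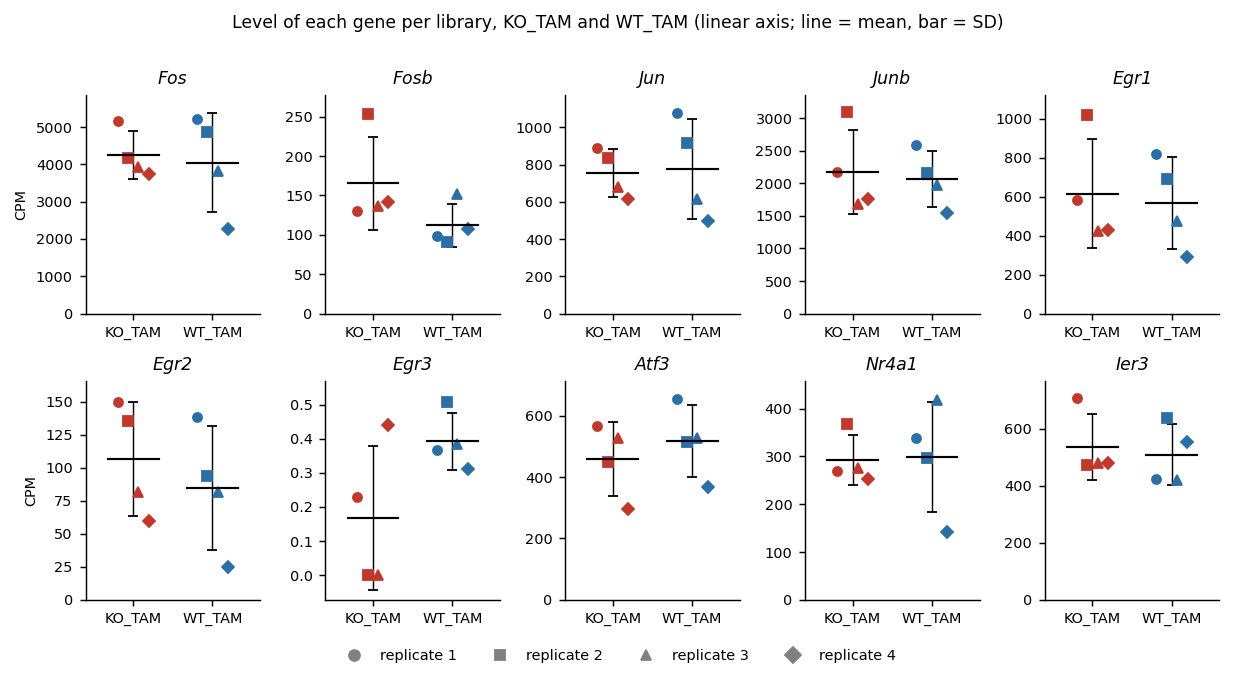
CPM of each of the 10 genes on linear axes in 4 KO_TAM libraries (left, red) and 4 WT_TAM libraries (right, blue), with the mean as a line, the SD as a bar and a marker shape per replicate number, which is not taken as a pairing. The groups overlap in every panel, and WT_TAM replicate 4 is the lowest WT_TAM library for 8 of the 10 genes.

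Most of the genes were lowest in the same WT_TAM library. WT_TAM replicate 4 had the lowest level of the WT_TAM libraries for 7 of the 9 tested genes, the exceptions being Fosb and Ier3, and it was the lowest for 44.8% of all genes tested. After centring each gene's log2(CPM + 0.5) on its mean over the 8 libraries, the mean of the 9 genes was 0.25, 0.39, -0.09 and -0.26 in KO_TAM replicates 1 to 4. In WT_TAM replicates 1 to 4 it was 0.28, 0.12, -0.01 and -0.67. Egr2 had the widest spread within WT_TAM, 5.65 times between its lowest and highest library, while Ier3 had the narrowest, 1.52 times. When WT_TAM replicate 4 and KO_TAM replicate 2 were both left out, Fos, Jun, Junb, Egr1, Egr2 and Nr4a1 had lower means in KO_TAM, 0 of 9 were called and the median of the 9 was -0.24.

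The summed CPM of the 10 genes was 7771 to 10783 in KO_TAM and 5805 to 11358 in WT_TAM. Summed markers of other cells and of RNA quality were compared for the same libraries. In these lists 0 genes were called, as 0 were over all 12875 genes tested. In bulk libraries, fewer cells of a type and less RNA per cell cannot be told apart. The 9 mitochondrial transcripts, which are read as a sign of RNA quality or content, summed to 3830 to 15837 CPM in KO_TAM and 9679 to 60872 CPM in WT_TAM, which overlap. All 9 had lower means in KO_TAM, with a median log2 fold change of -2.02. An unadjusted p under 0.05 (limma) was found for 9 of 9, against 18.4% of all genes tested. Neutrophil markers summed to 519 to 1474 CPM in KO_TAM and 137 to 333 CPM in WT_TAM, with 0 of 5 tested called. Fibroblast markers summed to 30.6 to 237 CPM in KO_TAM and 389 to 858 CPM in WT_TAM, with 0 of 7 tested called. Neither the neutrophil nor the fibroblast sums overlapped. Eosinophil, basophil and mast cell markers did not overlap either, at 232 to 920 CPM in KO_TAM and 21.2 to 172 CPM in WT_TAM. Endothelial sums were also apart (KO_TAM 80.6 to 144 CPM, WT_TAM 42.0 to 65.2 CPM). Most of this was Pecam1 (means of 96.6 CPM for KO_TAM, 40.6 CPM for WT_TAM), the only 1 of 3 tested without overlap. Carcinoma and epithelial sums were apart too (KO_TAM 19.3 to 28.0 CPM, WT_TAM 51.1 to 100 CPM). Most of this was Sox9 (means of 17.2 CPM for KO_TAM, 75.9 CPM for WT_TAM), again the only 1 of 3 tested without overlap. Krt18 had the higher mean in KO_TAM (3.63 CPM, WT_TAM 1.01 CPM), with overlapping groups. These 2 sums therefore rest mainly on single genes. Sums of monocyte, red pulp, dendritic, T and NK, B and plasma, and erythroid markers overlapped. The 8 macrophage markers had a median log2 fold change of -0.04 with 0 of 8 called, and summed to 7292 to 19125 CPM in KO_TAM and 26188 to 37340 CPM in WT_TAM. Lyz2, whose locus drives the Cre and which is 1 of the 8, averaged 10333 ± 5332 CPM in KO_TAM, against 27423 ± 4779 CPM in WT_TAM (n = 4 each, SD). Its groups do not overlap, and it did not pass the test (limma, adjusted p = 0.143). The other 7 summed to 3890.2 to 4549 CPM in KO_TAM and 3596 to 4358 CPM in WT_TAM, which overlap. Of these, Adgre1 averaged 849.9 ± 418 CPM in KO_TAM against 455 ± 140.2 CPM in WT_TAM (n = 4 each, SD), with an adjusted p of 0.227 by limma. The part of these differences in the levels of the 10 genes was not tested.

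Lists of other genes of the same programme also held 0 called genes in the comparison of genotypes. Of 29 tested other immediate early genes, 14 had higher and 15 lower means in KO_TAM, and their median log2 fold change was -0.01. Fosl1, a further FOS family gene, had 17.1 ± 3.40 CPM in KO_TAM, against 38.6 ± 21.0 CPM in WT_TAM (mean ± SD over 4 libraries a group; log2 fold change -1.03 ± 0.33, adjusted p = 0.175). Per1, a clock gene that is also induced early, had 61.5 CPM in KO_TAM, against 35.1 CPM in WT_TAM (log2 fold change 0.86 ± 0.30, adjusted p = 0.194). Ier2, the most abundant of the list per kilobase, had 382 CPM in KO_TAM, against 420.5 CPM in WT_TAM.

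Genes counted as feedback and stress regulators had a median log2 fold change of 0.12 over 21 tested genes. Gadd45a, a stress gene known to activate p38 and JNK signalling, had 99.8 CPM in KO_TAM, against 42.2 CPM in WT_TAM (log2 fold change 1.26 ± 0.32, adjusted p = 0.126). Tnfaip3, which encodes the NF-kappaB inhibitor A20, had 746 CPM in KO_TAM, against 382 CPM in WT_TAM (1.07 ± 0.55, adjusted p = 0.318). Dusp1, a MAP kinase phosphatase, was the most abundant per kilobase, with 5705 CPM in KO_TAM and 3845 CPM in WT_TAM (0.62 ± 0.28, adjusted p = 0.275). Upstream kinases and factors had a median of 0.19 over 26 tested, with Map2k4 at 0.74 ± 0.27 (adjusted p = 0.21) and Map2k2, the most abundant per kilobase, at -0.15 ± 0.16 (adjusted p = 0.617). Leucine zipper partners had a median of 0.04 over 15 tested, with Atf5 at -1.47 ± 0.76 (adjusted p = 0.318), Atf1 at 0.67 ± 0.34 (adjusted p = 0.309) and Xbp1 at 0.33 ± 0.17 (adjusted p = 0.318). Heat shock and chaperone genes had a median of -0.05 over 15 tested, with Hspe1 at -0.97 ± 0.40 (adjusted p = 0.248), Dnaja1 at 0.77 ± 0.42 (adjusted p = 0.341) and Hspa8 at -0.32 ± 0.16 (adjusted p = 0.318).

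In the second comparison, of macrophages from tumor and spleen, 8 of the 10 genes rose in WT_TAM relative to WT_SP and 1 of 10, Egr3, fell. Over all 14239 genes tested, 23.1% were called higher, 23.6% lower and 46.7% in either direction at an adjusted p of 0.05 (limma, Benjamini-Hochberg), and 53.9% had an unadjusted p under 0.05. The median log2 fold change of the 10 genes was 2.04, against -0.07 over all genes tested. Groups did not overlap for 9 of the 10, the exception being Jun, against 26.3% of all genes with WT_TAM above and 29.8% with WT_TAM below. Scaling by library totals without the authors' factors moved the median of all genes to -0.52 and the higher share of calls to 27.5%, against 49.4% with the factors. All 10 genes kept their direction under that scaling, and 7 of 10 passed the test, against 7764 of all 14301 genes tested.

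Ier3 had the largest difference. It was measured at 490.1, 739, 476 and 586 CPM in replicates 1 to 4 of WT_TAM, against 4.79, 6.18 and 6.01 CPM in WT_SP replicates 1 to 3. Every WT_TAM library was above every WT_SP library, and the means differed 101-fold (log2 fold change 6.52 ± 0.21, SE; adjusted p = 3.46e-07). Atf3 was next, with 754, 594, 599 and 390.4 CPM in WT_TAM, against 7.68, 18.1 and 14.6 CPM in WT_SP. Its groups were also far apart, with means that differed 43.4-fold (5.43 ± 0.32, SE; adjusted p = 3.43e-06).

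Fos had 6011, 5633, 4329 and 2406 CPM in WT_TAM, against 469, 1086 and 1023 CPM in WT_SP (log2 fold change 2.43 ± 0.40, SE; adjusted p = 0.00116). Its lowest WT_TAM library, replicate 4, was above the highest WT_SP library, replicate 2. Fosb had 113, 105, 172 and 113 CPM in WT_TAM, against 11.1, 32.1 and 27.1 CPM in WT_SP (2.50 ± 0.36, SE; adjusted p = 0.000568), and the groups did not overlap. Junb had 2979.8, 2487, 2229 and 1635 CPM in WT_TAM, against 582, 1273 and 1110.0 CPM in WT_SP, the smallest of the rises that passed the test (1.28 ± 0.31, SE; adjusted p = 0.00933). Junb missed the threshold under scaling by library totals (adjusted p = 0.0682).

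Jun was the gene that did not pass the test. It had 1243, 1057, 695 and 529 CPM in WT_TAM, against 422, 817 and 604 CPM in WT_SP. WT_TAM replicates 3 and 4 lay below the highest WT_SP library, and the log2 fold change was 0.49 ± 0.34 (SE; 95% interval -0.29 to 1.27; adjusted p = 0.269). The intervals of Fos, 1.53 to 3.33, and of Fosb, 1.68 to 3.32, lay above that of Jun, although the difference between genes was not tested.

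The EGR genes went in different directions. Egr1 had 945, 798, 537 and 305 CPM in WT_TAM, against 110.5, 225 and 191 CPM in WT_SP (log2 fold change 1.81 ± 0.41, SE; adjusted p = 0.00645). Egr2 had 159, 109, 92.8 and 25.9 CPM in WT_TAM, against 14.4, 20.4 and 15.1 CPM in WT_SP (2.26 ± 0.54, SE; adjusted p = 0.00852). Both were higher in each WT_TAM library than in any WT_SP library, by a narrow margin for Egr2 in WT_TAM replicate 4. Egr3 had 0.422, 0.588, 0.437 and 0.328 CPM in WT_TAM, against 1.41, 1.85 and 3.08 CPM in WT_SP (-1.43 ± 0.29, SE; adjusted p = 0.00349). These levels rest on 2 to 6 reads per WT_TAM library and 20 to 42 per WT_SP library. Markers of B and plasma cells, which the spleen gate did not exclude by a B cell antigen, summed to 10.3 to 74.5 CPM in WT_TAM and 7896 to 8990 CPM in WT_SP, and their part in the levels of Egr3 was not tested.

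Nr4a1 had 391, 343, 473 and 151 CPM in WT_TAM, against 73.4, 129.8 and 122 CPM in WT_SP. The log2 fold change was 1.57 ± 0.39 (SE; adjusted p = 0.011), and WT_TAM replicate 4 was near the highest WT_SP library. Without WT_SP replicate 1 the adjusted p was 0.0543, and under scaling by library totals it was 0.0605.

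**Figure D2:**
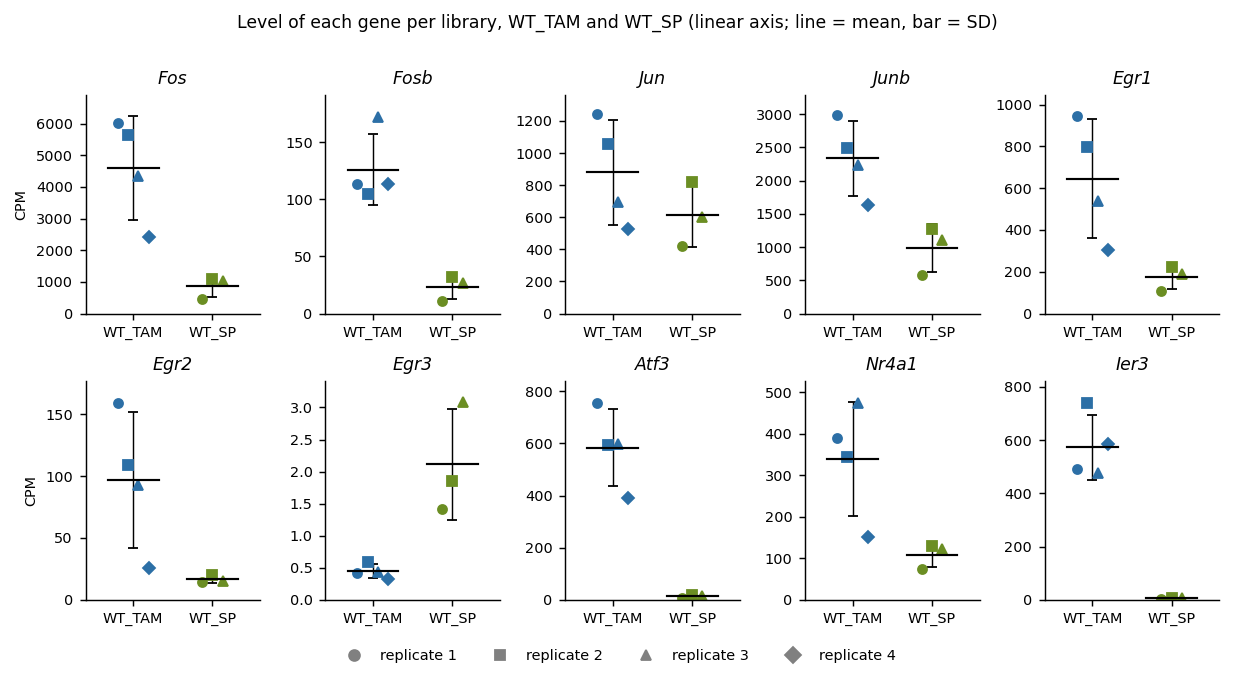
CPM of each of the 10 genes on linear axes in 4 WT_TAM libraries (left, blue) and 3 WT_SP libraries (right, green), with the mean as a line, the SD as a bar and a marker shape per replicate number, which is not taken as a pairing. WT_TAM lies above WT_SP without overlap for 8 genes, below it for Egr3, and overlaps it for Jun.

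**Figure D3:**
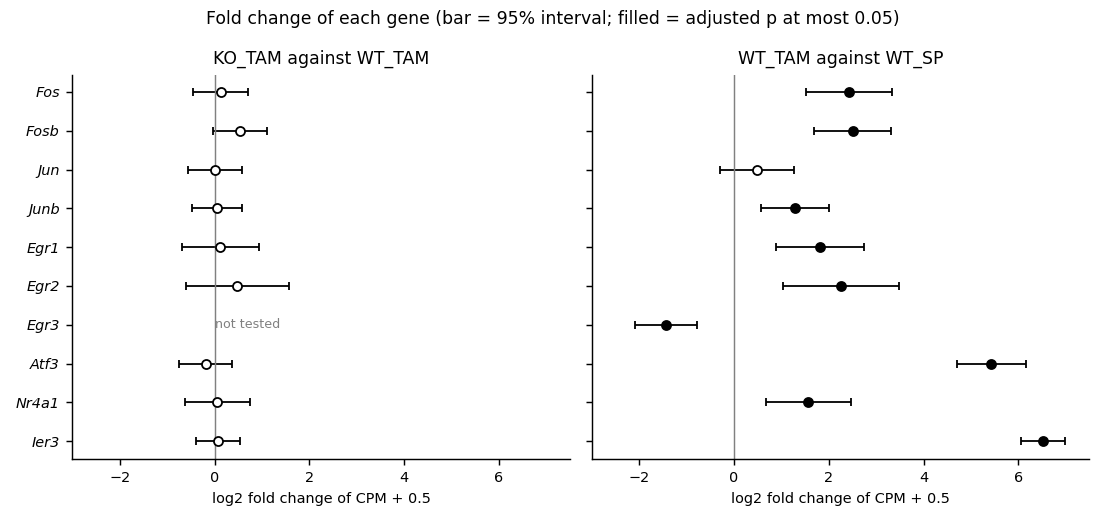
Log2 fold change of CPM + 0.5 with its 95% interval for each gene, in KO_TAM against WT_TAM (left) and WT_TAM against WT_SP (right), with filled circles where the adjusted p was at most 0.05. All 9 intervals on the left include 0, while 9 of 10 on the right do not. The fold changes on the right range from -1.43 for Egr3 to 6.52 for Ier3.

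The genes were also ordered by mean level within each site. Compared per kilobase of the gene's length, Junb and Fos were the highest in WT_TAM, at 2252 ± 540.2 and 2176 ± 770.4 CPM per kilobase (SD, n = 4), and did not differ beyond their spread. Ier3 followed at 511 ± 108, then Jun at 349.6 ± 129.7 and Atf3 at 310.2 ± 79.2, and neighbours in this order of 3 differed by less than the sum of their SDs. Egr1 had 210.2 ± 92.2, Nr4a1 137 ± 55.3, Fosb 33.5 ± 8.32, Egr2 33.2 ± 18.9 and Egr3 0.313 ± 0.0759 CPM per kilobase in WT_TAM. In WT_SP, Junb had 954 ± 349, Fos 407 ± 161 and Jun 244 ± 78.5 CPM per kilobase (SD, n = 3). Egr1 had 57.1 ± 19.2 and Nr4a1 43.8 ± 12.4, while Atf3, Fosb, Egr2 and Ier3 lay together between 5.05 and 7.15 CPM per kilobase in WT_SP, within each other's spread, above Egr3 at 1.49 ± 0.61.

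In the spleen all 10 genes were lowest in the same library. WT_SP replicate 1 was the lowest of the 3 for 10 of the 10 genes, against 35.5% of all genes tested. WT_SP replicate 2 was the highest for 9 of the 10, a count for which the share over all genes was not computed. Summed erythroid markers were 4148, 1041 and 883 CPM in WT_SP replicates 1 to 3, and fibroblast markers 48.3, 8.88 and 10.1 CPM. Macrophage markers of replicate 1, at 3683 CPM, lay between those of replicates 2 and 3, at 3428 and 3783 CPM. A link of these markers to the 10 genes was not tested. The mean centred log2(CPM + 0.5) of the 10 genes was 1.33, 1.21, 1.05 and 0.34 in WT_TAM replicates 1 to 4 and -1.85, -0.96 and -1.11 in WT_SP replicates 1 to 3. Leaving out both WT_TAM replicate 4 and WT_SP replicate 1, an alternative chosen after seeing the data, left 9 of 10 called and a median of 1.96. In that fit 8860 of all 14416 genes tested were called, against 6651 of 14239 in the reported fit.

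**Figure D4:**
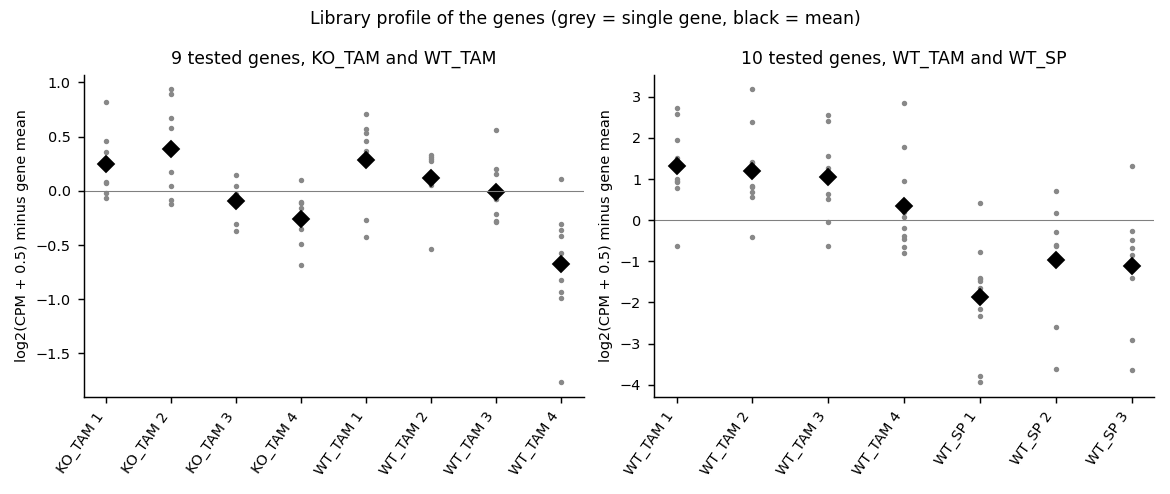
Each gene's log2(CPM + 0.5) minus its mean over the libraries of a table (grey points) and the mean of the tested genes (black diamonds), for KO_TAM and WT_TAM (left, 9 genes) and WT_TAM and WT_SP (right, 10 genes). The lowest means are those of WT_TAM replicate 4 at -0.67 on the left and of WT_SP replicate 1 at -1.85 on the right.

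Genes outside the group that followed it most closely were found by the root mean square difference between their centred profile and the mean profile of the group. Over the 7 libraries of the site table these were Trib1, a pseudokinase gene, Ttc39c, Klf6, a zinc finger gene of the early response, Tiam1, an activator of the GTPase RAC1, and Apobr, with differences of 0.129 to 0.214. Trib1 had 146 CPM in WT_TAM and 29.9 CPM in WT_SP, and Klf6 959 CPM in WT_TAM and 235 CPM in WT_SP. Over the 8 libraries of the genotype table they included Sbno2, Arhgap39, Mgrn1 and Ccrl2, with differences of 0.0784 to 0.0917. Of the 10 genes themselves, Fos was the closest to the group's mean in the site table, at 0.17, and Ier3 the farthest, at 2.13.

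Other immediate early genes were measured beside the 10. Of 29 tested other immediate early genes, 21 rose in WT_TAM and 2 fell, Myc and Ier5, with a median log2 fold change of 1.72. Nr4a2, of the same receptor family as Nr4a1, had 76.6 ± 43.9 CPM in WT_TAM and 1.37 ± 0.645 CPM in WT_SP (SD, n = 4 and 3; log2 fold change 5.19 ± 0.55, adjusted p = 9.82e-05). Fosl1 had 42.8 ± 21.2 CPM in WT_TAM and 0.794 ± 0.734 CPM in WT_SP (5.09 ± 0.46, adjusted p = 3.76e-05). Fosl2 had 56.8 ± 12.3 CPM in WT_TAM and 3.50 ± 1.29 CPM in WT_SP (3.86 ± 0.27, adjusted p = 8.31e-06), so that of the FOS family Fos, Fosb, Fosl1 and Fosl2 were all higher. Klf4, a zinc finger gene of monocyte differentiation, had 137 ± 98.0 CPM in WT_TAM and 9.39 ± 4.26 CPM in WT_SP (3.70 ± 0.50, adjusted p = 0.000396). Ier2, the most abundant of the list per kilobase, had 474 ± 89.8 CPM in WT_TAM and 295 ± 52.2 CPM in WT_SP (0.68 ± 0.21, adjusted p = 0.0274).

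Among the feedback and stress regulators, 12 of 22 tested rose and 1 fell, with a median log2 fold change of 1.33. Errfi1, an inhibitor of EGF receptors, had 198 CPM in WT_TAM and 9.37 CPM in WT_SP (4.30 ± 0.25, adjusted p = 3.10e-06), and Socs3, which inhibits cytokine signalling through STAT3, had 679.9 CPM in WT_TAM and 51.6 CPM in WT_SP (3.64 ± 0.29, adjusted p = 1.79e-05). Dusp1 had 4366 CPM in WT_TAM and 495 CPM in WT_SP (3.10 ± 0.37, adjusted p = 0.000199). Dusp2, another MAP kinase phosphatase, was the gene that fell, with 4.84 CPM in WT_TAM and 31.2 CPM in WT_SP (-2.54 ± 0.43, adjusted p = 0.00141).

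Leucine zipper partners of AP-1 included 6 that rose and 0 that fell of 15 tested, among them Batf2 (4.05 ± 0.19, adjusted p = 9.38e-07), Jdp2 (2.21 ± 0.47, adjusted p = 0.00448) and Mafg (1.81 ± 0.19, adjusted p = 7.71e-05). Xbp1, the most abundant per kilobase, had 355 CPM in WT_TAM and 285 CPM in WT_SP (adjusted p = 0.258). Upstream kinases and factors held 4 that rose and 6 that fell of 26 tested, no more than the 23.1% and 23.6% of all genes, with a median of -0.01. Mapk3, the gene of ERK1, was at 1.94 ± 0.42 (adjusted p = 0.00496) and Crem, a CRE-binding factor that is itself inducible, at 1.85 ± 0.22 (adjusted p = 0.000212). The kinase genes Rps6ka4 and Rps6ka5, whose products MSK2 and MSK1 phosphorylate CREB, moved apart, at 1.28 ± 0.19 (adjusted p = 0.000733) and -1.40 ± 0.28 (adjusted p = 0.00377).

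Heat shock and chaperone genes, which belong to another stress response, included 4 that rose and 3 that fell of 15 tested, near the 23.1% and 23.6% of all genes, and had a median of 0.11. Hspa1b had 211 ± 101 CPM in WT_TAM and 1846 ± 648 CPM in WT_SP (SD; log2 fold change -3.22 ± 0.43, adjusted p = 0.000381), and its near-identical neighbour Hspa1a 125 CPM in WT_TAM and 489.9 CPM in WT_SP (-2.05 ± 0.43, adjusted p = 0.0045). Reads of this pair can be split arbitrarily, and their values are uncertain for that reason. Bag3, a cochaperone, rose (2.47 ± 0.20, adjusted p = 1.80e-05), as did Hspa5, of the endoplasmic reticulum (1.01 ± 0.29, adjusted p = 0.0209), and Hspa8, the most abundant per kilobase (0.61 ± 0.17, adjusted p = 0.0188).

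**Figure D5:**
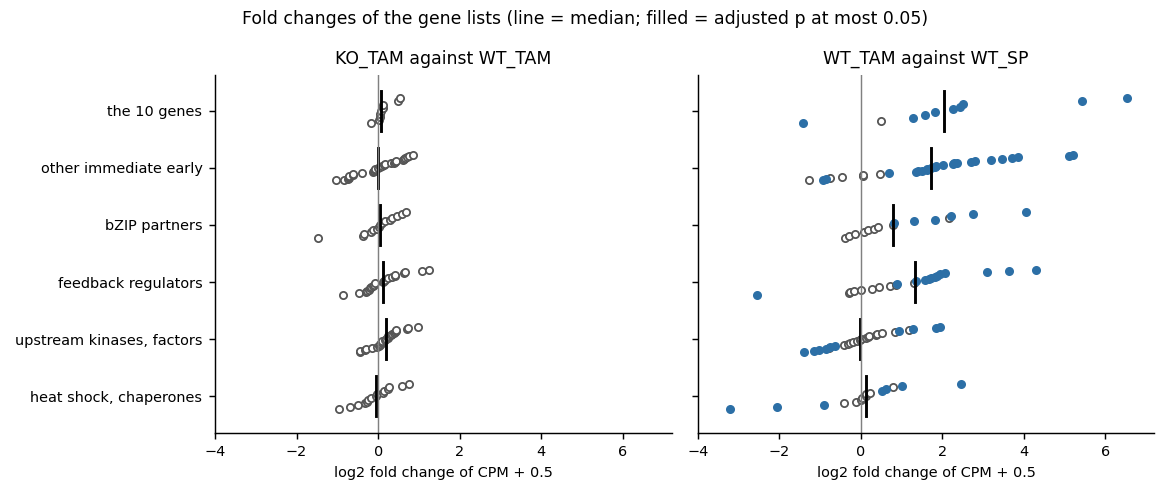
Log2 fold changes of CPM + 0.5 of the tested genes in 6 lists, in KO_TAM against WT_TAM (left) and WT_TAM against WT_SP (right), with a line at each list's median and filled circles where the adjusted p was at most 0.05. On the left 0 genes of these lists are called. On the right the medians are 2.04 for the 10 genes, 1.72 for the other immediate early genes and 0.11 for the heat shock genes.

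Cell markers moved between the same groups. Macrophage markers summed to 29660 to 39499 CPM in WT_TAM and 3428 to 3783 CPM in WT_SP, of which Lyz2 had 30708 CPM in WT_TAM and 1796 CPM in WT_SP, and 5 of 8 tested rose. Without Lyz2 the other 7 summed to 3804 to 5021 CPM in WT_TAM and 1685 to 2053 CPM in WT_SP. Markers of red pulp macrophages summed to 352 to 739 CPM in WT_TAM and 3869 to 4289 CPM in WT_SP, with 1 of 7 higher and 6 lower. All 7 markers of B and plasma cells and all 8 of T and NK cells were called lower in WT_TAM, while all 7 fibroblast markers were called higher, at 440.5 to 991 CPM in WT_TAM and 8.88 to 48.3 CPM in WT_SP. Neutrophil markers summed to 145 to 384 CPM in WT_TAM and 698 to 1502 CPM in WT_SP, and erythroid markers to 148 to 632 CPM in WT_TAM and 883 to 4148 CPM in WT_SP. Mitochondrial transcripts summed to 11152 to 70289 CPM in WT_TAM and 5909 to 7916 CPM in WT_SP, with 8 of 9 called higher. Of all these markers, Car1, an erythroid gene, was at 0 in every WT_TAM library, and the others had reads in both groups. The summed level of the 10 genes was 6141 to 13087 CPM in WT_TAM and 1696 to 3611 CPM in WT_SP. The part of the other cells and of RNA quality in these differences was not tested.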

How the data were processed

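RNA sequencing libraries of sorted macrophages were grouped by their titles. The submitters' processing notes name the build mm10 and, in no stated role or version, HISAT, HISAT2, TopHat2, HTSeq, SAMtools and DESeq2. The 1 table that the authors deposited per comparison holds a score of no fixed range, not counts. Each value was found, from the values alone, to be whole reads over gene length, library total and a scale factor, times a further factor taken in turn down the rows. The reads were recovered from these steps, and 99.95% to 99.99% of each library's implied total came back. For the genotypes, 95 of 186583 values above 0, in 34 genes, were not whole (within 0.0002 reads, or 1e-07 of their size). They were restored from the other table or by a round amount, and none belongs to the 10 genes. The length of 1 gene could not be settled and it was left out. The number of columns left out was 0.

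CPM were computed with the authors' totals and factors. The deposited unit is not counts, and the reported fit used no count model, although whole reads were recovered and voom was fitted to them as an alternative. It was limma 3.58.1 in R 4.3.3 on log2(CPM + 0.5) of each table, with a mean trend and robust empirical Bayes. Genes tested had at least 15 reads in all. They also had the equivalent of 10 reads, in a library of median size, in as many libraries as the smaller group holds. Fold changes of log2(CPM + 0.5) understate changes of low genes. P-values are two-sided and adjusted by Benjamini-Hochberg over all genes tested, with a threshold of 0.05. The procedure was tested on simulated data. These had the same spread for all genes and no divergent library such as WT_TAM replicate 4, so they do not measure error or power here. The 10 genes, the other lists and the cell type markers were chosen with earlier results of these data known. Named from each other list were the called genes with the largest change, at most 4, and the most abundant by CPM per kilobase, or the 2 largest changes where none was called. Some genes that meet these rules are not reported here. Myc, Ier5 and Car1 were named after their values were seen. Alternatives tried were other scalings, filters and pseudocounts, voom, array weights, all 11 libraries in 1 fit, a replicate block and leaving out libraries. Promoters came from RefSeq and gene positions from GENCODE. Intervals of counts cover counting error only.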

Additional observations from a re-analysis of the deposited data

Results flagged for a closer look

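For each of the 10 genes, the 4 KO_TAM and the 4 WT_TAM levels were examined for a library far from the other 3, by the gap to its nearest neighbour as a share of the group's whole range (Dixon's test, 95% critical value). Of the 20 groups examined, 2 passed, where chance gives about 1 in 20. KO_TAM replicate 2 was the highest KO_TAM library for Fosb, with a ratio of 0.908, at 253 CPM against 130.3 to 142 CPM in the other 3. KO_TAM replicate 1 was the highest KO_TAM library for Ier3, with a ratio of 0.971, at 709 CPM against 473 to 479 CPM in the other 3. Without that library the log2 fold change of Fosb in KO_TAM against WT_TAM was 0.31, and that of Ier3 was -0.07, and neither was called.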

How the results depend on the processing

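In KO_TAM against WT_TAM, 0 of the 9 tested genes were called under any of 19 alternatives. The number of genes called over the whole table was 0 in the reported fit, 104 with no filter on low values, 387 with array weights, 83 with all 11 libraries in 1 fit and 65 without both WT_TAM replicate 4 and KO_TAM replicate 2, and the cause was not tested. Array weights turned the log2 fold changes of Fos to -0.0796, Jun to -0.18, Junb to -0.20, Egr1 to -0.33, Egr2 to -0.0484 and Nr4a1 to -0.33. Leaving out both libraries gave -0.12 for Fos, -0.24 for Jun, -0.26 for Junb, -0.44 for Egr1, -0.18 for Egr2 and -0.38 for Nr4a1. Leaving out 1 library at a time, the range was -0.13 to 0.27 for Fos, -0.18 to 0.19 for Jun, -0.13 to 0.17 for Junb, -0.17 to 0.33 for Egr1, -0.0339 to 0.79 for Egr2, -0.27 to 0.25 for Nr4a1, -0.0724 to 0.19 for Ier3 and -0.34 to 0.0154 for Atf3. Fosb kept its sign throughout. In WT_TAM against WT_SP, between 7 and 9 of the 10 genes were called under 18 alternatives and all kept their direction. The 3 alternatives with fewer than 9 were library totals (Junb and Nr4a1 lost), a filter of 30 reads (Egr3 not tested) and no WT_SP replicate 1 (Nr4a1 lost). Calls over the whole table ranged from 4977 to 9526 under the 18 alternatives, and from 4977 to 9133 when 1 library was left out. The labels call the mice of the genotypes paired but do not say which libraries form a pair, and the replicate numbers were not taken as pairs: the correlations of their deviations were 0.0462, 0.115, -0.162 and 0.198 for the genotypes and -0.0023, -0.0936 and 0.0982 for the sites. Of the KO_TAM libraries, only replicate 4 correlated best with the WT_TAM library of its own number. For the sites, only WT_TAM replicate 3 did so with the WT_SP libraries. With a replicate block, 0 genes were called for the genotypes and 9117 for the sites, 9 of the 10 among them, and WT_TAM replicate 4, which has no partner, adds nothing to that fit. Depth limits the values of Egr3, which rest on 2 to 6 reads per WT_TAM library.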
